A study of Mus musculus with 5 samples.

Results

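Fibro-adipogenic progenitors (FAPs) are mesenchymal cells that lie between the fibres of skeletal muscle and carry the receptor PDGFRα. The cells described here are those labelled exactly FAPs by the authors on day 7 after muscle injury. A second, smaller label, FAPs (activated), was kept apart from them. FAPs numbered 1537 of 5680 labelled cells at day 7 and of 17923 labelled cells over all days. Their share of day 7 was 27.1%, with an exact 95% Clopper-Pearson interval of 25.9 to 28.2%. Fibrillar collagen genes took 5.16% of all transcripts counted in FAPs, against 2.57% in FAPs (activated), 3.02% in tenocytes, the cells of tendon, and 0.172% in all day 7 labels but the 2 of FAPs. Matricellular genes took 2.86% in FAPs, against 3.47% in tenocytes, so not every class of matrix gene was highest in FAPs.

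The study took single cells from the tibialis anterior of the shin of C57Bl/6 mice after injection of notexin, a snake venom toxin that breaks down muscle fibres, and from uninjured muscle. The muscle was digested with Collagenase D and Dispase II, red cells were lysed, and live cells were sorted by PI and Calcein-AM staining before 3' v2 libraries of the 10x Genomics system were made. Day 7 was male and 4 months old. Day 5 and uninjured muscle (day 0) were female and 4 months old, and day 2 was female and 7 months old. Sex thus cannot be told apart from day between day 7 and the others, nor age from day between day 2 and the others. The labels name no genotype beyond the strain. Each day gave 1 matrix of unique molecular identifier (UMI) counts, with 2 sequencing runs joined in that of day 0. How many mice went into a library is not given in the sources used here.

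FAPs are the main cell of muscle that makes interstitial matrix. After injury they multiply, feed and instruct muscle stem cells, and lay down a provisional matrix that is later removed or, when they persist, becomes scar or fat. Matrix proteins are made in the endoplasmic reticulum, trimmed and crosslinked outside the cell, and then bound by small proteoglycans and by matricellular proteins, which signal to cells without bearing load.

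At day 7 the cells labelled FAPs held 12312569 UMIs, with a median of 7669 per cell and a range of 2629 to 34645. The rest of day 7, meaning all labels but FAPs (activated), had 3791 cells and 26001911 UMIs, with a median of 5633 per cell. The rest comprised 1960 anti-inflammatory macrophages, 520 endothelial cells, 396 muscle stem cells (MuSCs) and progenitors, 378 NK/T cells, 329 macrophages/APCs, 88 tenocytes, 64 cells of a second macrophage/APC label and 56 mature skeletal muscle cells. Levels are given as counts per 1000000 UMIs (cpm) of a label's summed cells. These are 3' tags, so cpm is compared between labels and not between genes. Each day was 1 matrix with no replicate that could be told apart, and such labels rest on the expression of the same cells. Differences between labels are therefore described with no test. Intervals and lower limits cover counting error only. Of the 1537 barcodes, 25 also occurred at another day.

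The 5 genes given as markers of these cells were highest in FAPs among all 10 day 7 labels. Postn, which encodes the matricellular protein periostin (chr3:54359267-54391041), had 4308 cpm in FAPs, against 442 in FAPs (activated), 1875 in tenocytes and 136 in the rest as a whole. Smoc2, a secreted calcium-binding matricellular protein (chr17:14279490-14404790), had 1371 cpm in FAPs, against 343 in FAPs (activated), 108 in tenocytes and 20.5 in the rest. Meg3, a long noncoding RNA of an imprinted domain (chr12:109540996-109571729), had 3012 cpm in FAPs, against 430 in FAPs (activated) and 585 in MuSCs and progenitors, the next label. The 5 did not separate FAPs equally from each neighbour. Lum, the collagen-binding proteoglycan lumican (chr10:97565501-97572703), had 3178 cpm in FAPs, against 910 in FAPs (activated) and 1295 in tenocytes. Cilp, cartilage intermediate layer protein (chr9:65265180-65280614), had 1796 cpm in FAPs, against 173 in FAPs (activated) and 1783 in tenocytes. Cilp thus hardly differed between FAPs and tenocytes. Places are those of RefSeq on GRCm38.p6, the assembly behind the build name mm10. The 5 given markers summed to 13665 cpm in FAPs, against 2297 in FAPs (activated), 5293 in tenocytes, 1226 in MuSCs and progenitors and 128 to 349 in the other labels. A broader set of 5 fibroblast genes (Pdgfra, Dcn, Col1a1, Col3a1 and Gsn) summed to 51919.6 cpm in FAPs, against 46783 in FAPs (activated), 30605.5 in tenocytes and 1877 in the rest, so the label holds cells with FAP transcripts.

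**Figure D1:**
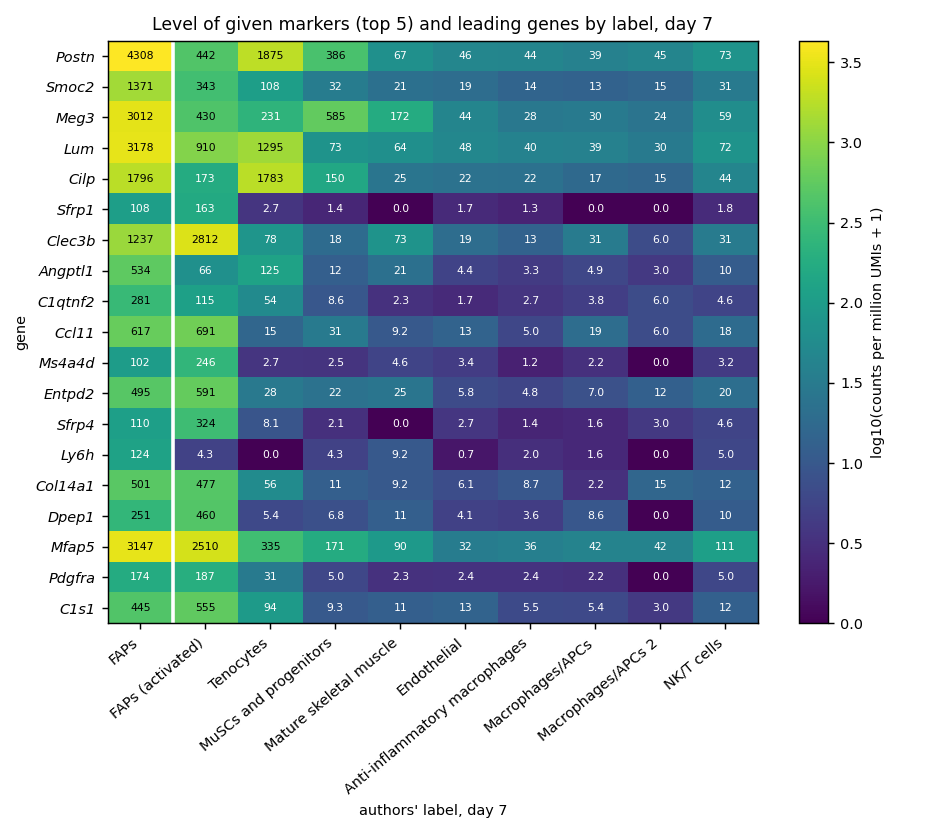
Level (cpm, printed in each cell and coloured on a log10 scale) of the 5 given markers and of the 15 genes with the largest ratio of FAPs over the rest of day 7, by the authors' label. FAPs are the left column; several of the leading genes, such as Clec3b with 1237 cpm in FAPs and 2812 in FAPs (activated), are higher in the second column.

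The promoters of Postn and Meg3 are shown because these 2 markers were abundant in FAPs and had a TATA-like motif in the RefSeq window of 250 bases before to 50 after an annotated start. Capitals mark TATAAA or CCAAT found on either strand.
Postn, GRCm38.p6, chr3:54360857-54361156, plus strand: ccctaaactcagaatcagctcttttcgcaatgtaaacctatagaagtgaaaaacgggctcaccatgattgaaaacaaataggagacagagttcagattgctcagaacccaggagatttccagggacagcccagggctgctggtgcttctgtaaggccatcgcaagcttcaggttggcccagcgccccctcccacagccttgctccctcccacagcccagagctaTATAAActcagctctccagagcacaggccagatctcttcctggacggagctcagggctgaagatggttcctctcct
Meg3, GRCm38.p6, chr12:109540746-109541045, plus strand: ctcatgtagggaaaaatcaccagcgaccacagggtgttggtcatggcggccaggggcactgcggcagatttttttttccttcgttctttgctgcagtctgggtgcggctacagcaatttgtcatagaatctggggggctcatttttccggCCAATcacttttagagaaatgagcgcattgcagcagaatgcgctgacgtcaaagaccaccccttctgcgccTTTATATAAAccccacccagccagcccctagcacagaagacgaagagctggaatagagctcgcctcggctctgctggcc
The motif starts at -26 in Postn and at -25 in Meg3, counted from the annotated start as 0. In Meg3 it overlaps a match on the opposite strand at -29, which makes the run of 10 capitals, and CCAAT starts at -100. Each gene has another annotated start whose window holds no TATAAA. Of the 19 genes that are markers or lead the ratio, 10 had a window in the table. TATAAA occurred in 2 of these 10 (20%), against 9.19% of 10451 day 7 genes with a window. TGANTCA occurred in 1 of 10, against 6.46%, and CCAAT in 3 of 10, against 42.4%. A match is only a run of letters and says nothing of a bound factor.

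Of 13970 genes with at least 20 UMIs over both groups, 2935 (21.0%) were at least 2-fold higher in FAPs than in the rest of day 7 and 2894 (20.7%) at least 2-fold lower. The median log2 ratio of FAPs over the rest was 0.04. Sfrp1 had the largest ratio of the genes that reached 100 cpm and 50 UMIs in the higher group. This secreted Wnt antagonist had 108 cpm in FAPs, against 1.31 in the rest, a log2 ratio of 6.37 (95% interval 5.88 to 6.91). Smoc2 followed at 6.07 (5.94 to 6.19). Clec3b, the plasminogen-binding protein tetranectin, had 1237 cpm in FAPs, against 19.8 in the rest, a log2 ratio of 5.96 (5.84 to 6.09). Those that follow Clec3b were Angptl1 (log2 ratio 5.92), an angiopoietin-like protein, C1qtnf2 (5.83), a C1q-related protein, and Ccl11 (5.80), the chemokine eotaxin. Ms4a4d (5.76) encodes a membrane-spanning protein, Entpd2 (5.73) an ectonucleotidase, Sfrp4 (5.73) another frizzled-related Wnt antagonist and Ly6h (5.70) an anchored surface protein. Col14a1 (5.65) encodes a collagen that coats fibrils, Dpep1 (5.63) a membrane dipeptidase and Mfap5 (5.56) a microfibril glycoprotein. Pdgfra (5.56), the receptor that defines FAPs, and C1s1 (5.49), the complement protease C1s, close the 15. Just outside them were Col3a1 (5.43) and Dlk1 (5.27). The given markers ranked 2 (Smoc2), 18 (Lum), 26 (Postn), 30 (Meg3) and 64 (Cilp) in this order. FAPs (activated), which are outside the rest, were higher than FAPs for Sfrp1 (163 cpm), Clec3b (2812), Ccl11 (691), Ms4a4d (246) and Entpd2 (591). They were also higher than FAPs for Sfrp4 (324 cpm), Dpep1 (460), Pdgfra (187) and C1s1 (555). The others of the 15 were lower in FAPs (activated) than in FAPs.

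The 8 genes with the smallest ratios were each highest in a macrophage or APC label. Lyz1, a lysozyme, had 2.68 cpm in FAPs, against 120.1 in the rest, a log2 ratio of -5.49. Mmp12, the elastase of macrophages, had 4.95 cpm in FAPs, against 189 in the rest (log2 ratio -5.25). The others were Slamf7 (-5.11), a leukocyte receptor, Igsf6 (-5.11), the anti-apoptotic Bcl2a1b (-4.94), Plbd1 (-4.89), the folate receptor Folr2 (-4.89) and the protease Napsa (-4.87). Lyz1 and Bcl2a1b have close relatives in the genome, and how reads shared with these were counted is not given in the sources used here.

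After each cell was thinned to 2000 UMIs, which left out none of the 1537 FAPs, Col3a1 had a UMI in 99.5% of FAPs, against 32.5% of NK/T cells. Dcn had one in 98.8% of FAPs, against 14% of NK/T cells, and Lum in 95.4%, against 6.61%. NK/T cells are not known to make these RNAs, so their share is read as background, from free RNA or doublets, which were not told apart (Scrublet marked 10 of 378 NK/T cells, and their median was 3946.5 UMIs per cell before thinning). Postn had a UMI in 84.4% of FAPs (82.5 to 86.2%), against 10.6% of NK/T cells. Smoc2 had one in 82.0% of FAPs, against 3.97%, Meg3 in 80.4%, against 3.44%, and Cilp in 77.4%, against 4.23%. Pdgfra had a UMI in 29.9% of thinned FAPs and 68.4% of unthinned ones, against 0.794% and 2.38% of NK/T cells. All of these shares in FAPs stood above the NK/T shares. At 2000 UMIs all 5 given markers were seen together in 46.9% of FAPs, 4 of them in 33.1%, and none in 6 cells (0.390%).

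Markers of most other cell types were lower in FAPs than in the rest of day 7, but not absent. The 8 macrophage markers summed to 1423 cpm in FAPs, against 57390 in anti-inflammatory macrophages, with none of the 8 at 0 in FAPs. Tenocyte markers (6) summed to 1217 cpm in FAPs, against 19621 in tenocytes and 618 in the rest, which includes tenocytes. They were thus above the rest in FAPs. Endothelial markers summed to 166 cpm in FAPs, against 3186 in the rest, and muscle progenitor markers to 41.2 cpm in FAPs, against 275 in the rest. Mural markers stood at 149.6 cpm in FAPs, against 169.6 in the rest, and were thus at a like level. So were neutrophil markers, at 27.9 cpm in FAPs, against 26.5 in the rest. Red cell genes were also above the rest, at 256 cpm in FAPs, against 109.8. Of the 1537 FAPs, 79 (5.14%) had over 1% of their UMIs from the markers of another type. Of these, 38 passed for macrophage, 34 for dendritic and 14 for mural markers, and a cell could pass for more than 1 type. Without these 79 cells 2937 genes were higher and 2945 lower, against 2935 and 2894 with them.

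Fibrillar collagens, the load-bearing fibres of connective tissue, were higher in FAPs for 6 of 7 genes, with a median log2 ratio over the rest of 4.77. Col3a1 led them with 21598 cpm in FAPs, against 499 in the rest (log2 ratio 5.43, 5.41 to 5.46). Col5a1, a nucleator of fibrils, had 792 cpm in FAPs, against 27.4 in the rest (4.85), and Col1a1 had 15628 cpm in FAPs, against 565 (4.79). The other gene, Col11a1, a collagen of cartilage and tendon, had 9.50 cpm in FAPs and 13.6 in the rest (-0.51). All 12 other collagens were higher, with a median of 3.67. Col14a1 (5.65), Col6a3 (5.19) and Col6a2 (4.81) led, the last 2 being chains of the beaded filaments near cells. Col4a1 (2.07) and Col4a2 (1.98), chains of basement membrane, had the smallest ratios.

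Genes that process and crosslink collagen were higher for 17 of 19, with a median of 3.34. They include Loxl2 (log2 ratio 4.74), a lysyl oxidase, Adamts2 (4.72), which cleaves the amino end of procollagen, and P4ha3 (4.22), a prolyl hydroxylase subunit. Loxl2 had 192 cpm in FAPs, against 7.19 in the rest. Plod3 (0.97), a lysyl hydroxylase, stayed under 2-fold. Tgm2, a transglutaminase that macrophages and endothelium also make, had 18.5 cpm in FAPs and 68.4 in the rest (-1.88). Over tenocytes the median of the collagen processing list was 0.21, with 4 of 19 higher and 3 lower. Over FAPs (activated) it was 0.44, with 4 higher and 2 lower. Small leucine-rich proteoglycans, which bind collagen fibrils and growth factors, were higher for 9 of 11 and lower for 2, with a median of 3.96 over the rest. The median turned to -0.10 against the highest other label, which was taken gene by gene. In that setting the median of all genes was -1.03. Podn (5.76), Lum (5.26) and Aspn (5.11) led. Fmod (-2.70) and Kera (-3.47) were the 2 lower ones, and both were high in tenocytes, at 4837 and 695 cpm, against 22.0 and 1.87 in FAPs.

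All 15 elastic fibre and matrix glycoprotein genes were higher in FAPs, with a median of 3.84. Mfap5 (5.56), Tnxb (5.24), a tenascin of collagen networks, and Mfap2 (4.92) led. Mfap5 had 3147 cpm in FAPs, against 66.5 in the rest. Fbn2 (2.84), a fibrillin, and Emilin1 (2.59), a protein of elastic fibres, had the smallest ratios. Over FAPs (activated) the median of this list was 0.13, with 4 of 15 higher and 2 lower. Over tenocytes it was 0.98, with 7 higher and 2 lower. Matricellular genes were higher for 17 of 20 and lower for 2, with a median of 3.15 over the rest. This median became -0.80 against the highest other label, where that of all genes was -1.03. Smoc2, Thbs3 (5.10), a thrombospondin, and Postn (4.99) led. Cthrc1, a secreted protein of activated fibroblasts, had 1072 cpm in FAPs, against 43.7 in the rest (4.62). The 2 lower members were Tgfbi (-1.02) and Spp1 (-3.60), osteopontin. Spp1 had 175 cpm in FAPs, against 2123 in the rest.

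Matrix proteases and their inhibitors were higher for 19 of 22 genes and lower for none, with a median of 3.23. Fap (4.98), the fibroblast activation protease, Mmp3 (4.76), stromelysin, and Mmp23 (4.59) led. Mmp2, a gelatinase, had 1341 cpm in FAPs, against 73.1 in the rest (4.20). Timp3 (0.09), an inhibitor, and Mmp13 (-0.91), a collagenase, had the smallest ratios. The list took 0.948% of UMIs in FAPs, against 0.988% in FAPs (activated) and 1.45% in tenocytes. Its median was 0.44 over FAPs (activated), with 4 of 22 higher and 4 lower, and 0.22 over tenocytes, with 5 higher and 3 lower. The secretory pathway list differed less from the rest, with a median of 0.89, 15 of 31 genes higher and none lower. Its leaders were Kdelr3 (3.88), a receptor that returns proteins to the endoplasmic reticulum, and the transcription factors Creb3l1 (3.35) and Creb3l2 (3.14), known for switching on collagen export. The general chaperone Hspa5 had 690.2 cpm in FAPs and 672 in the rest (0.04), Canx was at -0.03 and Spcs2, a signal peptidase subunit, at -0.32. Over tenocytes the median of the secretory list was 0.03, with none of 31 beyond 2-fold. Over FAPs (activated) it was 0.37, with 3 higher and none lower.

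**Figure D2:**
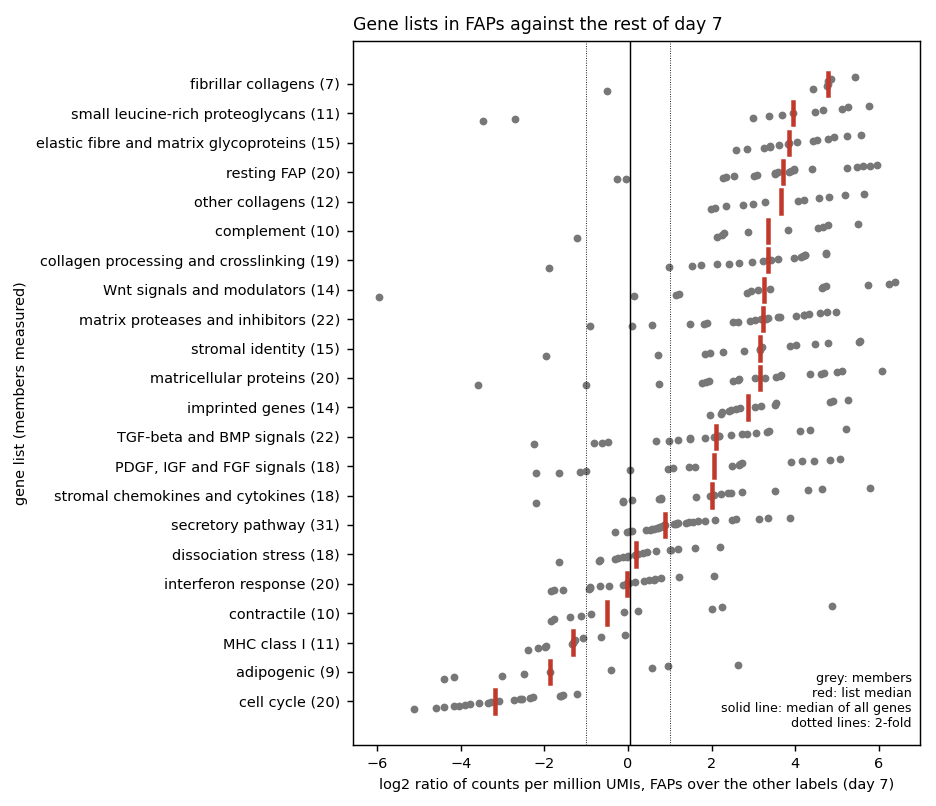
Log2 ratio of cpm in FAPs over the rest of day 7 for the measured members of 22 gene lists (grey points), with each list's median (red bar), the median of all 13970 genes (solid line) and 2-fold limits (dotted lines). Fibrillar collagens have the highest median, 4.77, and cell cycle genes the lowest, -3.18.

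Among signals, the TGF-beta and BMP list was higher for 16 of 22 genes and lower for 1, with a median of 2.11 over the rest. Against the highest other label its median was -0.65, and that of all genes was -1.03. Fst, follistatin, which binds activins, had 85.6 cpm in FAPs, against 2.31 in the rest (5.21). Fstl1 (4.34), a secreted follistatin-like protein, and Gdf10 (4.11), a ligand of the BMP family, followed. The ligand Tgfb1 went the other way, with 54.3 cpm in FAPs and 257 in the rest (-2.24). Bambi (-0.82), a decoy receptor, was also among the smallest ratios. PDGF, IGF and FGF signals were higher for 12 of 18 and lower for 4, with a median of 2.05 over the rest. Against the highest other label their median was -0.65 (all genes -1.03). Fgf7 (5.07), Igfbp6 (4.82), which binds IGF2, and Fgf18 (4.45) led. Pdgfa (-1.66) and Pdgfc (-2.21), both ligands of PDGFRα, were lower in FAPs. FAPs thus held the receptor transcript Pdgfra at 174 cpm, against 3.69 in the rest, and the ligand transcripts Pdgfa at 15.4 cpm, against 48.8, and Pdgfc at 1.87 cpm, against 8.65.

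Wnt signals and modulators were higher for 12 of 14 and lower for 1, with a median of 3.25. Sfrp1, Rspo3 (6.23), a secreted enhancer of Wnt signalling, and Sfrp4 led. Against FAPs (activated) the median of this list was -0.76, with 2 of 12 higher in FAPs and 5 lower. It took 0.0401% of UMIs in FAPs, against 0.0749% in FAPs (activated). Axin2, a common target of the pathway, had 1.14 cpm in FAPs and 1.04 in the rest (0.13), and Wif1, a secreted inhibitor, had 1 UMI or 0.0812 cpm in FAPs and 5.08 in the rest (-5.97, 95% interval -11.28 to -3.46). Stromal chemokines and cytokines were higher for 11 of 18 and lower for 1, with a median of 2.00 over the rest. Against the highest other label their median was -0.35 (all genes -1.03). Cxcl5 (5.78), Il33 (4.63), an alarmin, and Il34 (4.30), a ligand of the macrophage growth factor receptor, led. Cxcl16 (-2.21) was lower, and Ccl8 stood at -0.12. Complement genes were higher for 9 of 10, with a median of 3.34. C1s1, Serping1 (4.77), the inhibitor of C1, and C2 (4.65) led. Cd59a (-1.23), a membrane inhibitor, was the 1 lower, and C4b (2.24) and Cfb (2.14) were the next smallest.

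All 14 measured imprinted genes, which are expressed from 1 parental copy and many of which restrain or drive growth, were higher in FAPs, with a median of 2.86. Dlk1, a membrane protein that inhibits fat formation, had 124 cpm in FAPs, against 3.23 in the rest (5.27). Meg3 (4.90) and Ndn (4.84), necdin, followed. H19 had 958 cpm in FAPs, against 83.7 in the rest (3.52). Igf2r (2.22), a scavenger of IGF2, and Peg3 (1.95) had the smallest ratios. Genes of resting FAPs were higher for 18 of 20 and lower for none, with a median of 3.71. Clec3b, Ccl11 and Dpep1 led them, and Dpp4 (-0.05) and Smpdl3a (-0.26) stayed near 0. Stromal identity genes were higher for 13 of 15 and lower for 1, with a median of 3.15. This median became -0.35 against the highest other label (all genes -1.03). Osr1, a transcription factor of embryonic and injury-activated FAPs, had 49.9 cpm in FAPs, against 1.08 in the rest (5.53). Nt5e (-1.97), an ectoenzyme, was the lower one and Eng (0.71) stayed under 2-fold.

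Cell cycle genes were lower in FAPs for all 20, with a median of -3.18. Mki67 had 1.06 cpm in FAPs, against 25.4 in the rest (-4.59), and Ube2c had 1.87, against 64.9 (-5.12). Tyms (-1.22), Pcna (-1.55) and Cdk1 (-1.61) were the least lowered. Cell cycle genes took 0.0201% of UMIs in FAPs, against 0.0181% in FAPs (activated) and 0.0522% in tenocytes. Contractile genes were mixed, with 3 of 10 higher, 4 lower and a median of -0.49, which was -1.33 without the 79 FAPs that held markers of another type. Lrrc15, a membrane protein of matrix-making fibroblasts, had 58.8 cpm in FAPs, against 2.00 in the rest (4.88), Cald1 stood at 2.25 and Myl9 at 2.01. Acta2, the actin of smooth muscle and myofibroblasts, had 62.5 cpm in FAPs and 116 in the rest (-0.90), and Tpm1 (-1.77) and Des (-1.84) had the smallest ratios. Adipogenic genes were lower for 5 of 9 and higher for 1, with a median of -1.86. Zfp423 (2.63), a factor of committed fat precursors, was the higher one, while Fabp4 had 122 cpm in FAPs, against 2572 in the rest (-4.39), and Cd36 stood at -4.16. Plin1 (0.95) and Lpl (0.56) lay between. Over tenocytes the median of the adipogenic list was 0.28, with 2 of 8 higher and 2 lower. Over FAPs (activated) it was 0.26, with 1 of 8 higher and 1 lower. The list took 0.101% of UMIs in FAPs, 0.0870% in FAPs (activated), 0.0790% in tenocytes and 0.388% in the rest.

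The MHC class I list was lower for 9 of 11 genes, with a median of -1.33, and H2-Q7 (-2.40) and Psmb9 (-2.16) had the smallest ratios. Tapbp (-0.08), Tap2 (-0.64) and H2-T23 (-1.08) were the least lowered. Over tenocytes the median of this list was 0.40, with 3 of 11 higher and none lower. Over FAPs (activated) it was -0.52, with none beyond 2-fold. Reads of the H2 genes can be shared between relatives. The interferon response list did not stand apart, with a median of -0.02, 2 of 20 genes higher and 3 lower. Ifit1 (2.06) and Ifi27 (1.21) were the higher ones, Ifit3 stood at 0.78, and Mx1 (-1.76) and Oas1a (-1.83) had the smallest ratios. Genes induced by tissue digestion had a median of 0.19, with 5 of 18 higher and 1 lower. Egr1 (2.21), Socs3 (1.60) and Fosb (1.2) were the highest, and Atf3 (-0.69) and Hspa1a (-1.66) the lowest.

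FAPs were also set against the 2 other labels rich in fibroblast genes, tenocytes and FAPs (activated). Tenocytes had 88 cells and 743495 UMIs, so their intervals are wide. Against tenocytes, 1336 of 11813 genes (11.3%) were at least 2-fold higher in FAPs and 985 (8.34%) lower. Of the imprinted and resting FAP genes, 12 of 14 and 13 of 20 were higher in FAPs, with medians of 2.73 and 1.86. None of the imprinted genes and 4 of the resting FAP genes were lower, and the resting list as a sum took 1.81% of UMIs in FAPs, against 2.44% in tenocytes. Dpep1 had 251 cpm in FAPs, against 5.38 in tenocytes (log2 ratio 5.55, 4.19 to 7.42). Ccl11 was at 5.38. The others rest on 2 or 3 UMIs in tenocytes, and their intervals are wide. They were Dlk1 (5.53, 3.68 to 8.58), Hmcn2 (5.41, 3.55 to 8.46), hemicentin, Igf2 (5.38, 3.83 to 7.65), Sfrp1 (5.33, 3.48 to 8.38), Ms4a4d (5.24, 3.39 to 8.29) and Vtn (5.22, 3.67 to 7.50), vitronectin. Ly6h had 124 cpm in FAPs and no UMI in tenocytes, at least 30.8-fold higher by the floor of 3 counts. H19 had 958 cpm in FAPs, against 44.4 in tenocytes (4.43).

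Of the 10 genes lowest in FAPs against tenocytes, Reg3g, a secreted lectin, came first. It had 1 UMI or 0.0812 cpm in FAPs, against 325 cpm in tenocytes (-11.97, -17.28 to -9.48). Chad, chondroadherin, had 3 UMIs or 0.244 cpm in FAPs, against 636 cpm in tenocytes (-11.35, -13.63 to -9.79), and Wif1 stood at -11.06 (-16.38 to -8.56). Far fewer transcripts of each were thus seen in FAPs. Cilp2 (-10.19), Col22a1 (-9.06), a collagen of tissue junctions, Kera (-8.54), keratocan, Slpi (-8.31), Col11a2 (-7.80) and Prph (-7.52) were others. Fmod, fibromodulin, had 22.0 cpm in FAPs, against 4837 in tenocytes (-7.78). The bulk collagens differed far less. Col1a1 stood at 0.30 and Col1a2 at 0.02 over tenocytes, while Col3a1 had 21598 cpm in FAPs, against 4698 in tenocytes (2.20). Fibrillar collagens were higher in FAPs for 4 of 7 and lower for 1, with a median of 1.24. Matricellular genes were higher for 4 and lower for 7 of 20, with a median of -0.42, and their lower members included Thbs4 (-3.10) and Comp (-4.30).

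Against FAPs (activated), with 352 cells and a median of 5056 UMIs, 1619 of 11924 genes (13.6%) were at least 2-fold higher in FAPs and 664 (5.57%) lower. The median ratio over all genes was 0.21, so ratios are read against that shift. Other collagens were higher for 11 of 12, with a median of 2.13, imprinted genes for 11 of 14, with a median of 2.52, contractile genes for 6 of 9 (2.08) and fibrillar collagens for 5 of 7 (1.2). Mural markers, Acta2 among them, summed to 149.6 cpm in FAPs, against 11.4 in FAPs (activated). Their part in the contractile ratio was not tested. Ptn, the heparin-binding growth factor pleiotrophin, had 657 cpm in FAPs, against 8.05 in FAPs (activated) (log2 ratio 6.35, 5.67 to 7.13). Its relative Mdk, midkine, had 447 cpm in FAPs, against 29.8 (3.91). Mest, an imprinted enzyme gene, had 771 cpm in FAPs, against 17.5 (5.46), and Tnc, tenascin-C, had 144 cpm, against 3.79 (5.25). Fibin (5.75), Dlk1 (5.23), Ly6h (4.87), Col8a1 (4.79), a short-chain collagen, Igf2 (4.47) and H19 (3.88) were the others that led. Matricellular genes were higher for 8 of 20 and lower for 3, with Postn at 3.29 and Cilp at 3.37.

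Resting FAP genes were lower in FAPs than in FAPs (activated) for 13 of 20 and higher for 2, with a median of -1.58. Pi16, a marker of universal fibroblasts, had 274 cpm in FAPs, against 5167 in FAPs (activated) (-4.24). Chemokines and cytokines were lower for 11 of 18 and higher for 3, with a median of -1.08, and Cxcl13 had 5.12 cpm in FAPs, against 1966 (-8.59). Lcn2 (-8.72), lipocalin-2, Lrg1 (-7.31), Saa1 (-4.96), serum amyloid A, Hp (-4.88), haptoglobin, Serpina3m (-6.62) and Serpina3n (-4.32) are acute-phase genes. Dmkn (-7.58), Chl1 (-5.75), an adhesion molecule, and Efhd1 (-4.32) complete the 10 smallest. Complement genes were lower for 3 of 10 and higher for 2, with C3 at -3.27 and C4b at -3.85.

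**Figure D3:**
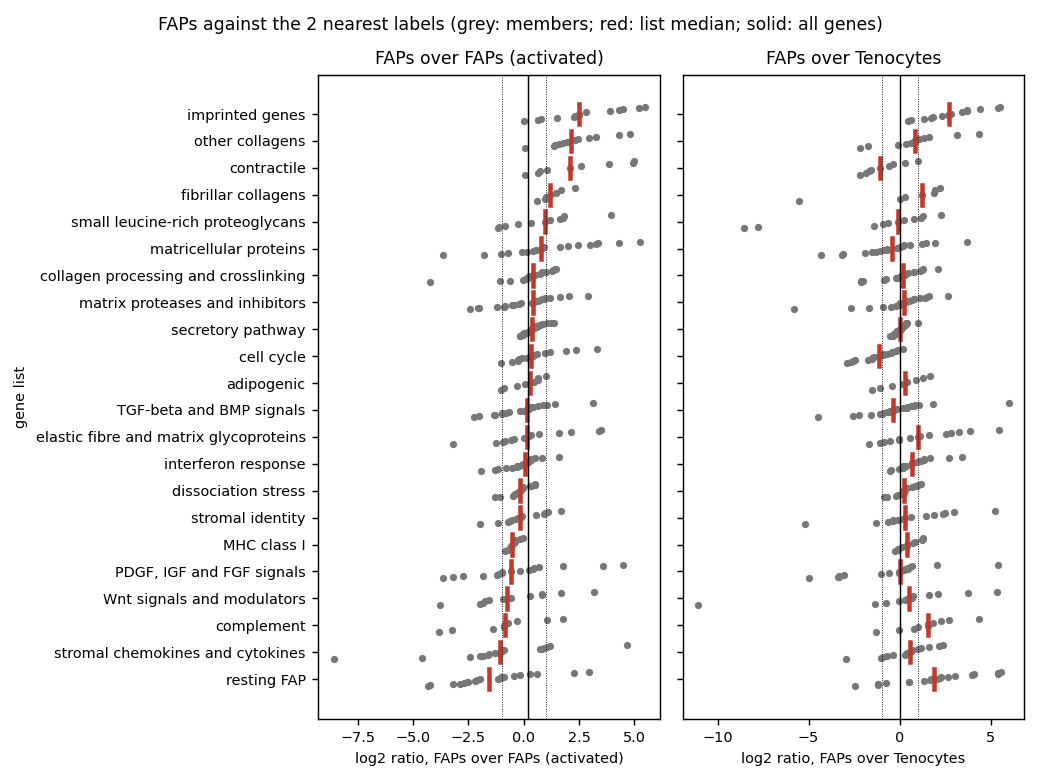
Log2 ratio of cpm in FAPs over FAPs (activated) (left) and over tenocytes (right) for the measured members of the same lists (grey), with list medians (red), the median of all genes (solid) and 2-fold limits (dotted); a gene with no UMI on 1 side is drawn at the floor of 3 counts. Imprinted genes lie to the right in both panels, with medians of 2.52 over FAPs (activated) and 2.73 over tenocytes, and resting FAP genes lie left over FAPs (activated) at -1.58 and right over tenocytes at 1.86.

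Within FAPs, the genes that varied most between cells were of mixed kinds. Over 2670 genes with a mean of at least 0.1 UMI per thinned cell, the variance divided by the mean had a median of 1.04. It was 98.9 for the haemoglobin gene Hbb-bs, which had a UMI in 1.04% of cells with up to 141 in 1 cell. Apod (45.1), apolipoprotein D, Acta2 (31.9), Gsn (30.1), the actin-severing protein gelsolin, and Mgp (29.4), matrix Gla protein, followed. These differ in how many cells hold them. Acta2 had a UMI in 3.90% of FAPs and Rgs5 (21.6), a pericyte gene, in 1.5%, while Gsn had one in 91.5% and Mgp in 92.8%. Mgp had a median of 9 UMIs per thinned cell and a 95th percentile of 59. Apoe (27.7), Spp1 (22.3), Cd74 (21.5), Cxcl14 (16.2), Malat1 (14.8), Lyz2 (10.4), Dcn (9.34), H2-Ab1 (8.72) and Col3a1 (7.86) complete the 15. Apoe, Spp1, Cd74, Lyz2 and H2-Ab1 are abundant in myeloid cells. Postn (7.80) and Meg3 (7.02) were next among the given markers, with Postn at a median of 5 UMIs per thinned cell, a lower quartile of 2 and an upper quartile of 12.

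To see which programmes vary together, each cell's UMIs were split at random in 2 equal parts. Cells were ranked on 1 part by the share of a gene list and put in 5 classes of 307 or 308 cells, and levels were measured in the other part. Members shared with the ranking list were left out of the measured list. Ranked by resting FAP genes, the same list summed to 5539, 9783, 15157, 22177 and 42789 cpm from the lowest to the highest class. Imprinted genes ran the other way, with 10633, 10260.0, 7040.4, 4830.05 and 3853 cpm over these classes, a log2 ratio of -1.46 for the highest over the lowest class. Cells with more resting FAP transcripts thus had fewer imprinted transcripts. Fibrillar collagens were lower in the highest class, at 39048 cpm, against 58561 in the lowest (log2 -0.58), and complement genes were higher, at 4009, against 2018 (0.99). Median UMIs per cell were 6573 in the highest class and 9200.5 in the lowest, and macrophage markers had 881 cpm, against 1834. Mature muscle markers had 332 cpm, against 936. Of mural genes, Rgs5 had 7.23 cpm in the highest class, against 191 in the lowest (log2 -4.72), Tagln 8.14, against 96.8 (-3.57), and Acta2 28.9, against 181 (-2.64). The part of these in the result was not tested.

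The resting FAP list did not weigh its members equally, and Mgp alone gave 22683 of the 42789 cpm of the highest class, against 1944 of 5539 in the lowest. Members of the ranking list are given as a description, since they set the ranking. Hsd11b1, the enzyme that activates glucocorticoids, had 206 cpm in the highest resting class, against 2.12, or 3 UMIs, in the lowest (log2 6.60, 5.04 to 8.89), and Myoc, myocilin, had 456, against 7.06 (6.01). Cxcl14 had 3788 cpm, against 264 (3.84). Not every list member took part. Clec3b had 1072 cpm in the highest class and 997 in the lowest (0.10), and Sema3c 21.7, against 61.5 (-1.50). Among genes of the other lists and named genes with at least 100 UMIs over both classes, Mmp3 (3.15) and Ms4a4d (2.22) were among the highest. Dlk1 had 19 cpm in the highest class, against 220 in the lowest (-3.54), Tnc 38, against 288 (-2.92), and Cthrc1 484, against 1780 (-1.88).

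Ranked by imprinted genes, that list summed to 1440.4, 3153, 5583, 9357 and 18292 cpm over the classes. Resting FAP genes had 9301 cpm in the highest class, against 27741 in the lowest (log2 -1.58). Fibrillar collagens were higher in the highest class, at 58778 cpm, against 42000 (0.48), and so was the secretory pathway, at 11826, against 9102 (0.38). Median UMIs per cell were 7286 in the highest class and 6371 in the lowest, and macrophage markers had 615 cpm, against 1756. Mature muscle markers went the other way, at 949 cpm in the highest class, against 566 in the lowest. Their part was not tested either. At 2000 UMIs, H19 was seen in 75.6% of the 131 FAPs with a Dlk1 UMI, against 42.7% of the other FAPs.

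Ranked by matricellular proteins, fibrillar collagens summed to 60584 cpm in the highest class, against 36859 in the lowest (log2 0.72). Imprinted genes had 8523 cpm, against 5065 (0.75), and resting FAP genes 14088, against 23986 (-0.77). Of the matricellular list itself, Sparc alone gave 21667 of the 40531 cpm of the highest class, against 9813 of 15949 in the lowest. Postn had 7935 cpm in the highest class, against 1272 (2.64), and Tnc 281, against 33.5 (3.07). Smoc2, also on the list, had 1242 cpm in the highest class and 1247 in the lowest (-0.01), so it did not move with Postn. Lrrc15 (2.80), Sfrp2 (2.79), a frizzled-related protein, Col8a1 (2.67) and P4ha3 (2.4) were the highest of the other genes with at least 100 UMIs over both classes. Other values moved with this ranking too. Tenocyte markers that are not on the ranking list had 91.4 cpm in the highest class, against 25.9 in the lowest. Macrophage markers had 774 cpm in the highest class, against 3068 in the lowest, Rgs5 6.67, against 339, Acta2 20.7, against 277, mature muscle markers 519, against 958, and median UMIs per cell were 9968, against 5115. Their part in the result was not tested. At 2000 UMIs, Meg3 was seen in 85.0% of FAPs with a Postn UMI, against 55.4% of those without. Smoc2 was seen in 82.1% of FAPs with a Postn UMI and in 81.2% of those without.

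**Figure D4:**
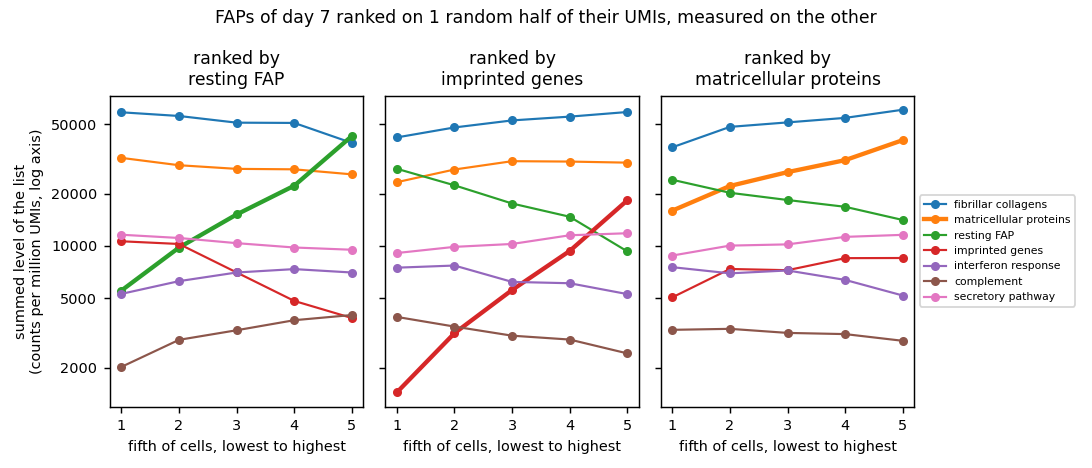
Summed level (cpm, log axis) of 7 gene lists in 5 nearly equal classes of the 1537 FAPs of day 7, numbered 1 (lowest) to 5 (highest) and ranked by resting FAP genes (left), imprinted genes (middle) or matricellular genes (right) on 1 random part of each cell's UMIs and measured on the other; the ranking list is the thick line. In the left panel imprinted genes stand at 3853 cpm in the highest class and 10633 in the lowest, and in the middle panel resting FAP genes stand at 9301 cpm in the highest and 27741 in the lowest.

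The same label existed at the other days, with 3516, 667, 828 and 1537 FAPs at days 0, 2, 5 and 7 and median depths of 4452, 12321, 2785 and 7669 UMIs per cell. The 3 comparisons share the day 7 cells, and only day 7 had a separate label FAPs (activated). Xist, which is transcribed from the inactive X chromosome of females, had 660.3, 647, 807 and 0.812 cpm in that order, as the labelled sexes give. Postn climbed at each step, with 107, 822, 2134 and 4308 cpm at days 0, 2, 5 and 7. Cilp had 290.3, 415, 1461 and 1796 cpm, Meg3 564, 1089.7, 1238 and 3012 cpm, and Lum 1893, 922, 1958 and 3178 cpm. Smoc2 took another course, with 2168 cpm at day 0, 432 at day 2, 1646 at day 5 and 1371 at day 7, so among the 5 only it was lower at day 7 than without injury.

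Of 13116 genes, 1383 (10.5%) were at least 2-fold higher at day 7 than at day 0 and 1499 (11.4%) lower. Fibrillar collagens were higher for 6 of 7 (median log2 2.42) and imprinted genes for 11 of 14 (2.49). Ly6h (7.40), Cthrc1 (7.25), Tnc (7.2) and C1qtnf3 (6.11) had the largest ratios to day 0, with Ctss (5.56), a protease of myeloid cells. Cthrc1 had 7.04, 391, 347 and 1072 cpm at days 0, 2, 5 and 7, and Tnc 0.979, 99.6, 207 and 144 cpm. Resting FAP genes were lower at day 7 than at day 0 for 13 of 20 (median -2.06, or -1.53 with FAPs (activated) joined to FAPs at day 7). Pi16 had 2707, 126, 1253 and 274 cpm over the days, and Gsn 44811, 2307, 10608 and 3547 cpm. The day 7 value of Pi16 leaves out FAPs (activated), where it was far higher, so its course from day 5 to day 7 depends on that split. After Xist, Car8 (-5.64), Efhd1 (-4.82), Pcolce2 (-4.72) and Myoc (-4.47) had the smallest ratios. Interferon response genes were higher for 15 of 20 (1.91), with Isg15 at 53.8, 60.9, 307 and 407 cpm over the days.

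Against day 2, 938 of 12722 genes (7.37%) were higher at day 7 and 968 (7.61%) lower. Cell cycle genes were lower for 16 of 20 (median -2.45), and Mki67 had 0.734, 15, 0.343 and 1.06 cpm over the days. Imprinted genes were higher for 9 of 14 (1.81) and interferon response genes for 15 of 20 (2.16). Igf2 (5.13) and Ifit3 (4.28) were among the 5 largest ratios. The other 3 were the muscle fibre genes Myl1 (5.81), Mylpf (4.95) and Acta1 (4.88), markers of mature muscle and not of FAPs. Besides Xist, the 5 smallest were S100a4 (-4.30) and the gene models Gm10260 (-6.99), Gm10709 (-6.83) and Rps18-ps3 (-4.14), which can share reads with their source genes.

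Against day 5, 1293 of 12108 genes (10.7%) were higher at day 7 and 1513 (12.5%) lower. Fibrillar collagens had a median of 0.14 with none of 7 higher and 1 lower, so 6 of 7 lay within 2-fold of day 5. Resting FAP genes were lower for 10 of 20 (-1.14, or -0.44 with FAPs (activated) joined to FAPs at day 7) and contractile genes higher for 5 of 9 (1.09). Imprinted genes were higher for 4 of 14 and lower for 1 (0.41), and for 2 of 14 with FAPs (activated) joined in (0.21). Ptn had 39.5, 65.7, 129.9 and 657 cpm over the days, Mest 46.1, 151, 342 and 771 cpm, and Cdkn1c, a cell cycle inhibitor, 253, 97.0, 442 and 1421 cpm. These 3 were at their highest at day 7. The 5 largest ratios were the macrophage genes C1qc (3.70), C1qb (3.34), C1qa (3.14) and Spp1 (2.93) and the haemoglobin gene Hbb-bs (3.51). The smallest besides Xist were Plac9b (-4.20) and the gene models Gm10126 (-4.21), Gm10263 (-3.83) and Gm10076 (-3.55). How far RNA of other cells or the unequal depth of the days enters these ratios was not tested.

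**Figure D5:**
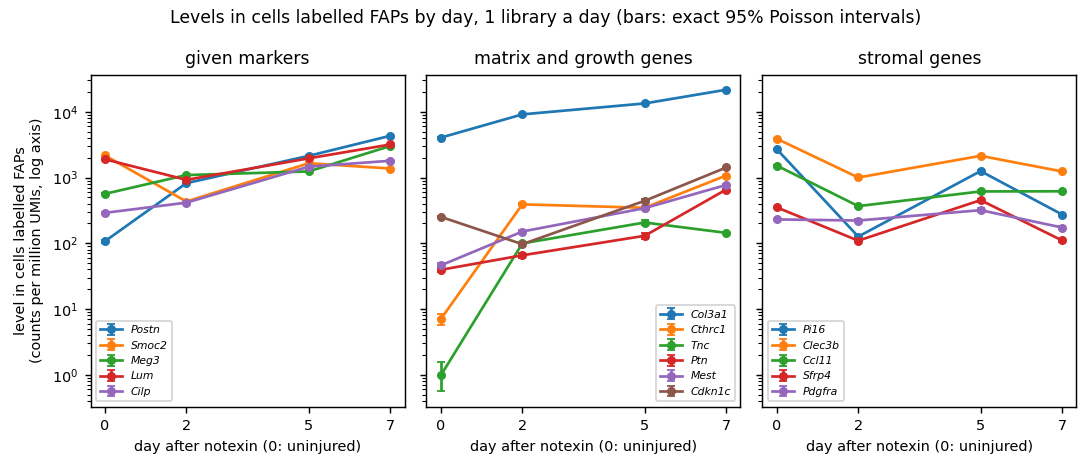
Level (cpm, log axis) in cells labelled FAPs at days 0, 2, 5 and 7, for the given markers (left), matrix and growth genes (middle) and other stromal genes (right), with exact 95% Poisson intervals for counting error and 1 matrix a day (2 runs joined at day 0). Postn stands at 107, 822, 2134 and 4308 cpm and Pi16 at 2707, 126, 1253 and 274 cpm over days 0, 2, 5 and 7. Day 7 leaves out FAPs (activated), a label that only this day had and in which Pi16 was far higher.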

How the data were processed

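The submitters' processing notes name mm10, R 3.6.2, Seurat 2.3.4 and Cell Ranger 2, without saying which did what. The authors deposited UMI counts per gene and barcode, and values on a natural log scale. These could be rebuilt from the day 7 counts, scaled to 10000 per cell with 1 added, with a largest difference of 6.22e-15. For each cell the authors also deposited its label and its mitochondrial fraction. A metadata column on injury gives day 0 throughout, and days were taken from the sample labels instead. Other metadata columns (12) were not used. How the authors filtered cells and assigned labels is not given in the sources used here.

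Counts were summed per label and expressed in cpm. Log2 ratios carry exact binomial (Clopper-Pearson) intervals and levels exact Poisson intervals, both at 95%, from scipy 1.17.1. A side at 0 took a floor of 3 counts. Genes needed 20 UMIs over both groups. Cells were thinned and split at random with seed 1. The sums and ratios were tested on simulated data. Between days, FAPs at day 7 stood without FAPs (activated), a label that days 0, 2 and 5 lacked. Doublets were not removed in the main values. Scrublet, in scanpy 1.11.5, marked 38 of 1537 FAPs (2.47%). Tables were handled with pandas 2.3.3 and numpy 2.4.6.

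The cells, the 22 lists (369 genes, 9 of them without a row at day 7 and not analysed here) and the markers were chosen with earlier results of these data known. Genes were named by rule. They were the given markers, the 15 largest and 8 smallest ratios to the rest, the 3 largest and 2 smallest of each list, the 15 most variable genes, and the 5 largest and 5 smallest ratios between days. Other genes named, among them those against tenocytes and FAPs (activated), those outside a ranking list and single genes by day, were chosen after their values were seen, as were the promoter motifs, which took the place of planned protein features. RefSeq sequences are of GRCm38.p6.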

Additional observations from a re-analysis of the deposited data

Results flagged for a closer look

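The day 7 matrix held 9 barcodes with no label, which enter no comparison above. They had 113389 UMIs in all, of which 187 came from the 5 given markers. That is 1649 cpm, above the 26.5 cpm that a count of 0 would still allow, which every day 7 label also passed. Labels other than FAPs, FAPs (activated), tenocytes and MuSCs and progenitors had 128 to 349 cpm of these genes. The 1537 FAPs had 13665 cpm of the same genes. Which cells the 9 barcodes came from is not known from the labels.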

How the results depend on the processing

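Leaving out the FAPs with markers of another type, or the top Scrublet scores, was chosen after seeing the data. The comparison of FAPs with the rest depended most on what the rest was. Against the highest other label, taken gene by gene, 393 genes were higher and 7119 lower, and the median of all genes was -1.03. List medians turned to -0.35 for stromal identity, -0.10 for small leucine-rich proteoglycans and -0.80 for matricellular genes. They were -0.65 for TGF-beta and BMP, -0.65 for PDGF, IGF and FGF, and -0.35 for chemokines. These list medians were negative but above that of all genes. Without the immune labels 1633 genes were higher and FAPs made up 52.1% of cells. With 20 cpm added to both sides 775 were higher and 662 lower. Under the other settings (equal weight of labels, tenocytes left out, thinning, centring, other filters, deep cells or doublets left out) both counts stayed within 1.5 times. Between days, the Wnt list over day 2 turned to 0.059 when cells were thinned to 1000 UMIs, and the proteoglycan list over day 0 stood at -0.29 thinned, against 0.07. With FAPs (activated) joined to FAPs at day 7, the chemokine list over day 0 stood at 0.51 (8 of 18 higher, 3 lower), against -0.42 (6 higher, 7 lower) for FAPs alone. The cause was not tested. Scrublet marked 109 of 5680 cells. No paired analysis was possible because each day was 1 matrix, and no library could be left out. Depth limits low genes: a count of 0 allows 3.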

Other observations

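Ranked in the same way by interferon response genes, which did not set FAPs apart from the rest of day 7, the cells still differed among themselves. The list summed to 3173, 4306, 5634, 7575 and 12585 cpm from the lowest to the highest class. Ifit3 had 641 cpm in the highest class, against 29.0 in the lowest (log2 4.47), and Rsad2 168, against 5.64 (4.89). Cxcl10, a chemokine induced by interferon, had 531 cpm, against 106 (2.33), and its relative Cxcl9 339, against 73.4 (2.21). Ly6a, the surface protein Sca-1 by which FAPs are sorted, had 3199.6 cpm, against 673 (2.25). Rgs5, a pericyte gene seen in few cells, had 225 cpm, against 21.8 (3.37). Imprinted genes were lower in the highest class, at 5824 cpm, against 9310.1. So were tenocyte markers, at 723 cpm, against 1554, macrophage markers, at 892, against 1614, and mature muscle markers, at 429, against 781. The part of these in the result was not tested.

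Ranked by genes that tissue digestion induces, the dissociation stress list had 26542 cpm in the highest class, against 1806 in the lowest. Stromal chemokines and cytokines had 3449 cpm in the highest class, against 1400 in the lowest, and secretory pathway genes 8820, against 11831. Fibrillar collagens were close, at 54317 cpm in the highest and 51834 cpm in the lowest. Macrophage markers had 912 cpm, against 575, mature muscle markers 414, against 722, and tenocyte markers 966, against 1467, and their part was not tested.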
